A study of Mus musculus with 14 samples.

Results

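The macrophage and monocyte genes of the heart were followed as a set of 35, chosen by name. The rule uses no measured value, but the set was chosen with earlier results of these data known. They were 35 of the 55487 genes in the count table, and all 35 were among the 15528 genes that passed the filter on low counts. RNA had been sequenced from tissue given as untreated whole hearts of male C57BL/6 mice in 4 groups: wild type at 2 months of age (3 libraries), knockout at 2 months (3), wild type at 15 months (4) and knockout at 15 months (4). The knockout is Myh6-Cre-Sqstm1fl/fl, in which Cre recombinase, made from the Myh6 promoter of cardiac muscle cells, removes the loxP-flanked Sqstm1 gene that encodes the autophagy receptor p62. The immune cells of the heart are therefore not the cells in which Sqstm1 was to be removed. The labels call the controls wildtype and do not say whether they carried Cre or the loxP sites. Whether blood was washed out is not in the labels, nor is it stated that hearts of a group were processed apart from each other. P-values here therefore reflect only how these libraries vary, which may be technical.

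Cardiac macrophages live between the muscle cells, where they clear dying cells, mitochondria shed by muscle, and immune complexes. Many descend from embryonic precursors and renew themselves in place. These resident cells carry the hyaluronan receptor Lyve1, the folate receptor Folr2 and the phosphatidylserine receptor Timd4. Others arrive from the blood as monocytes that carry the chemokine receptor Ccr2, and their share in the mouse heart is known to grow with age and injury. Both kinds need the growth factor receptor Csf1r and the transcription factor PU.1, which Spi1 encodes.

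The targeted gene was measured first. Sqstm1 stood at 177, 139 and 169 CPM (counts scaled to a common library total) in wild-type replicates 1 to 3 at 2 months and at 15.2, 14.7 and 19.2 CPM in knockout replicates 1 to 3. At 15 months it stood at 208, 186, 238 and 173 CPM in wild-type libraries, against 14.6, 37.0, 16.2 and 17.6 CPM in knockout ones. The levels of the genotypes did not overlap, and the fall was -3.30 ± 0.31 on the log2 scale at 2 months and -3.23 ± 0.26 at 15 months (estimate ± SE, edgeR's quasi-likelihood test, Benjamini-Hochberg adjusted p 0.00036 and 6.46e-05).

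Some of the 35 share sequence with other genes, and the sequence decides how firmly their counts can be read. Lyz2 is the lysozyme gene of macrophages and Lyz1 that of Paneth cells. They lie side by side on chromosome 10 and their coding sequences of 447 bases are 95.1% identical. Ly6c2 encodes the Ly6C antigen of inflammatory monocytes. Its neighbour Ly6c1 is abundant in endothelial cells, and their coding sequences of 396 bases are 97.7% identical. The first 90 coding bases of each are shown, with capitals at the bases that differ within a pair.
Lyz2 coding bases 1 to 90: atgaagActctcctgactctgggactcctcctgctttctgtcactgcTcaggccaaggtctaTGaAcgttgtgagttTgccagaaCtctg
Lyz1 coding bases 1 to 90: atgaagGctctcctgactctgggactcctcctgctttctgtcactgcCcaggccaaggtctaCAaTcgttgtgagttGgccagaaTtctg
Ly6c2 coding bases 1 to 90: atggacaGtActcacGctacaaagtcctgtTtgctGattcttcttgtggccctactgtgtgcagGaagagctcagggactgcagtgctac
Ly6c1 coding bases 1 to 90: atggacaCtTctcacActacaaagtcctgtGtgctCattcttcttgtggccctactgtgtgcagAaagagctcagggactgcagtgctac
The first pair differed at 7 of these 90 bases and the second at 6. Over the whole transcripts, 15.4% of the 50-base windows of Lyz2 and 16.1% of those of Lyz1 also occurred in the other gene. For Ly6c2 the share was 14.4%, mostly with Ly6c1, and for Fcgr3 9.58%, with the inhibitory Fc receptor gene Fcgr2b. Itgam, the integrin CD11b, overlapped the annotated gene Gm49368 on the same strand over 3450 exon bases, and 66.3% of its windows were shared. How reads of shared sequence were counted is not given in the sources used here, so the counts of Lyz1, Ly6c2 and Itgam are uncertain. Exons of Csf1r, Folr2, Cx3cr1 and F13a1 overlapped those of a gene on the opposite strand.

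PU.1 and other Ets factors bind purine-rich DNA with a GGAA core. The motifs GAGGAAG and, separately, AGGAAGT, which can overlap each other, were searched on both strands in RefSeq promoter windows of GRCm38.p6, from 250 bases before to 50 bases after each transcript start. Of the 35 genes, 28 matched a window, and 16 of the 28 (57.1%) held a match to either motif. Over all 27025 genes with a window the share was 21.3%, and over all 32851 windows 19.1%. GAGGAAG was found in 11 of the 28 (39.3%, against 15.4% of all genes) and AGGAAGT in 12 (42.9%, against 10.7%). These are matches of letters, not measured binding. The windows of 5 genes that the comparison of ages turned on are shown, with the matches in capitals.
Fcgr3 promoter, chr1:171059345-171059644, minus strand: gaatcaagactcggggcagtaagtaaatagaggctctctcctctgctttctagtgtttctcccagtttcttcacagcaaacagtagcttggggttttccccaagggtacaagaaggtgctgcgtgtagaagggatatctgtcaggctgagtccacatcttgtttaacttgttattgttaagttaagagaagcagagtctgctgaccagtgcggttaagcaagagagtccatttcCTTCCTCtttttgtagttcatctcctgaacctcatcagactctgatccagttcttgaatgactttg
Lyz2 promoter, chr10:117282223-117282522, minus strand: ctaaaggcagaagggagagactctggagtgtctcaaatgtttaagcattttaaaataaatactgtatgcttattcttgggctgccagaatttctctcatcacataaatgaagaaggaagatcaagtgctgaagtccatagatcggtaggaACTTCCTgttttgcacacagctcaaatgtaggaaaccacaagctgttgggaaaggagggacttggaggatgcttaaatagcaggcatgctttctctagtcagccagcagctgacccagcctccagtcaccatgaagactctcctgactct
Pf4 promoter, chr5:90772185-90772484, plus strand: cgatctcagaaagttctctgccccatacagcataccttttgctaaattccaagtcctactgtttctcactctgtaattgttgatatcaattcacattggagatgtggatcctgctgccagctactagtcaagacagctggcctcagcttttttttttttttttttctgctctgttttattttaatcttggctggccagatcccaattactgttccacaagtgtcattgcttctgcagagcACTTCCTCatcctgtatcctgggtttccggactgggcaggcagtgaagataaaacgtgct
Cd68 promoter, chr11:69666121-69666420, minus strand: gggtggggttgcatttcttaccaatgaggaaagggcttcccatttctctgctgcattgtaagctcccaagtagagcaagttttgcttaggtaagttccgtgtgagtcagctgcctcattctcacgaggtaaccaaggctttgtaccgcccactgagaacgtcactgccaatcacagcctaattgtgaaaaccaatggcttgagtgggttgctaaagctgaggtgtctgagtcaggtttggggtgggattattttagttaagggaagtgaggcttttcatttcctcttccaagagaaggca
Ccr2 promoter, chr9:124101933-124102232, plus strand: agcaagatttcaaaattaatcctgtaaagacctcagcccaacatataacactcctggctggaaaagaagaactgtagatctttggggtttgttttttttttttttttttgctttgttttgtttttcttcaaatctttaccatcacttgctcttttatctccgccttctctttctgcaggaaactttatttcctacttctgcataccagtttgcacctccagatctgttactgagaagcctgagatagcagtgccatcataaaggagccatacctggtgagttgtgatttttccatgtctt
In these windows the match lay 16 bases before the start in Fcgr3, 100 before it in Lyz2, and from 10 bases before it in Pf4, where the motifs overlap. The Cd68 and Ccr2 windows held neither motif.

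Total counts ran from 20218992 to 30404416 per library, of which 27.5% to 46.0% fell on mitochondrially encoded genes. Counting precision thus differed among the 35: all libraries together gave 49279 reads for Lyz2 but 185 for Ly6c2 and 155 for the integrin Itgax. Wild-type replicate 1 at 2 months held atrial and fat cell transcripts (summed 1681 and 56.1 CPM, against 38.4 to 303 and 0.209 to 10.7 CPM over the other 13 libraries). The atrial gene Myl7 had 16444 reads in it. At 15 months Myl7 had 368 to 1151 reads in wild-type replicates 1, 2 and 4 and knockout replicate 1. In the remaining libraries it had 1 to 16, so the libraries did not hold the same share of atrial tissue, although whole hearts are named. Knockout replicate 1 at 15 months had the highest mitochondrial share and platelet transcripts at a summed 38.6 CPM, against 3.25 to 30.9 CPM in the other libraries. Of the markers of other immune cells, 8 of 12 neutrophil genes, 11 of 18 lymphocyte genes and 5 of 8 dendritic cell genes had no read in at least 1 library, and the neutrophil gene Mpo had none in any. Among mast cell genes 1 of 7 had no read in at least 1 library, and among platelet genes 0 of 6. No macrophage or monocyte gene of the 35 was at 0 in any library.

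Compared per kilobase of exon, the transcripts spanned a wide range of levels. In wild-type hearts at 2 months Lyz2 led with 182 ± 30.3 CPM per kb (mean ± SD, n = 3). The complement genes C1qa and C1qb followed at 25.2 ± 4.16 and 23.7 ± 2.14, and the chemokine gene Pf4 at 22.6 ± 2.15. C1q is the recognition unit of the classical complement pathway, and in tissues macrophages are its main source. The resident macrophage genes F13a1 (a coagulation factor subunit) and Mrc1 (the mannose receptor) stood at 7.78 ± 0.878 and 7.20 ± 0.952 CPM per kb, Folr2 at 5.54 ± 1.68 and Lyve1 at 3.44 ± 1.04. Of the 5 monocyte genes, Cd14 stood at place 19 with 2.51 ± 1.65, and the other 4 were near the bottom of the order: Ccr2 at 0.353 ± 0.236, Itgam at 0.228 ± 0.146, Ly6c2 at 0.115 ± 0.0536 and Itgax at 0.0842 ± 0.0138 CPM per kb. Lyz2 was the highest and Itgax the lowest of the 35 in each of the 4 groups. Counted from the top, Fcgr3 went from place 6 in wild type at 2 months to place 12 at 15 months, whereas Ccr2 went from place 32 to place 27.

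**Figure D1:**
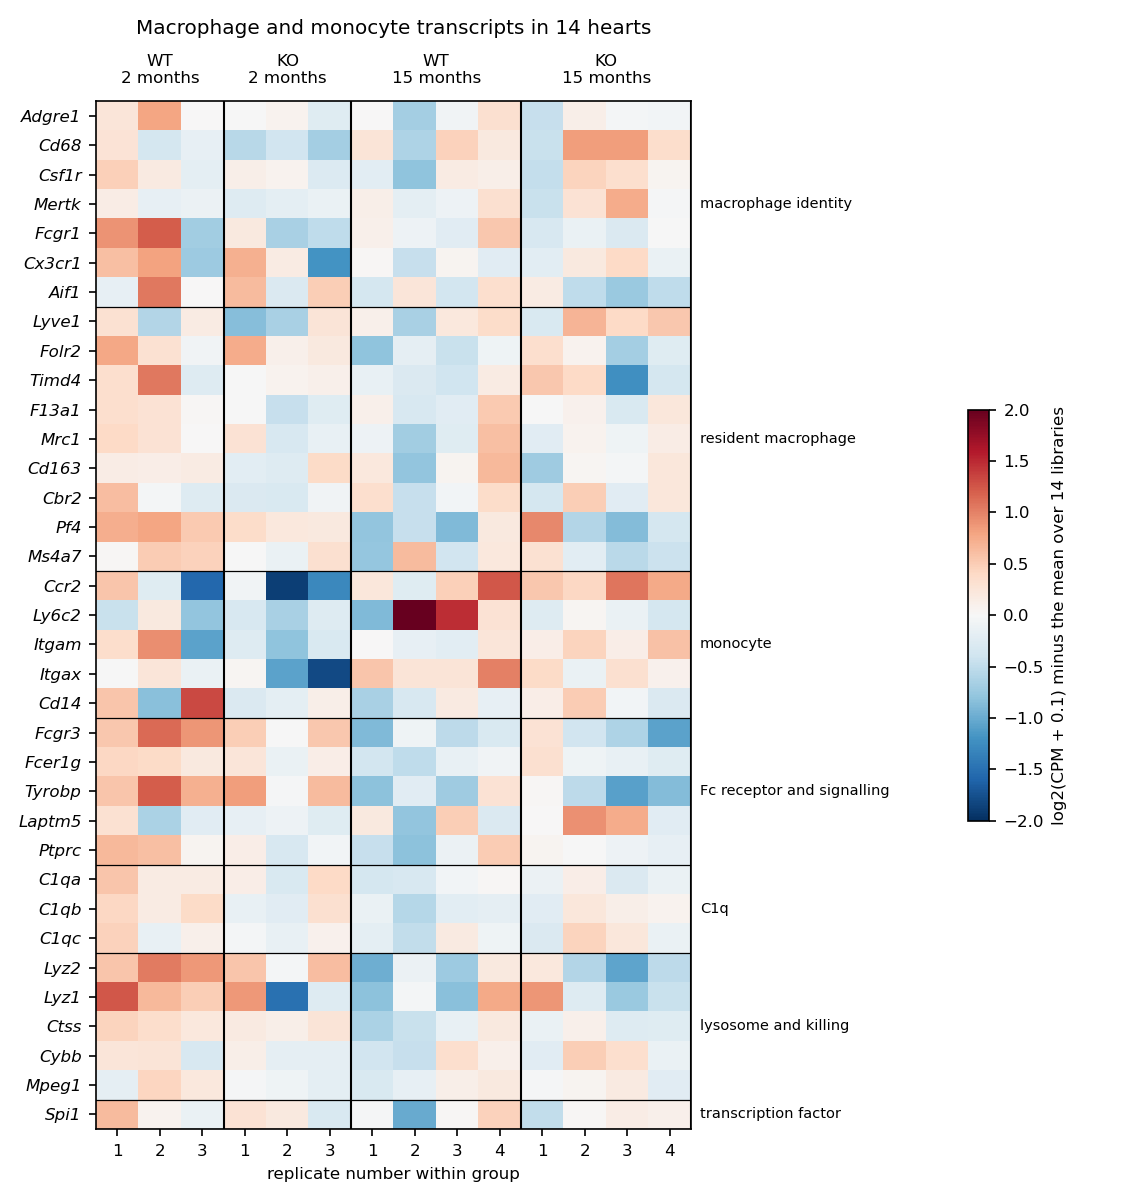
Each cell is a gene's log2(CPM + 0.1) in a library minus its mean over the 14 libraries, with genes ordered by role (rows) and libraries by group and replicate number (columns). In wild-type replicates 1 and 2 at 2 months 31 and 28 of the 35 genes lie above their own median over the libraries, and in wild-type replicate 2 at 15 months 6 do.

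At 2 months the 35 transcripts were all lower on average in knockout than in wild-type hearts, but none passed the test. The 35 log2 fold changes had a median of -0.32 and lay between -1.10 (Itgax) and -0.01 (Folr2), whereas over all 15528 genes the median was -0.00 and 50.3% were below 0. Called were 0 of the 35, against 0% of all genes higher and 0.00644% lower, which is Sqstm1. DESeq2 and limma voom also called 0 of the 35. At an unadjusted p below 0.05, 1 of the 35 was found, Fcgr1, on the lower side, against 2.02% of all genes there and 1.17% on the higher side. Whether fewer macrophages or less of these RNAs per cell underlie such values cannot be told apart in bulk RNA.

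By role, the monocyte genes had a median of -0.75 over 5 at 2 months, which is the value of Ccr2, the C1q genes one of -0.21 over 3, and Spi1 was at -0.16 ± 0.34 (SE). Without wild-type replicate 1 Ccr2 was at -0.09, and without wild-type replicate 3 Cd14 went from -0.73 to -0.13. The resident genes had a median of -0.35 over 9, the Fc receptor and signalling genes of -0.32 over 5, the general macrophage genes of -0.29 over 7 and the lysosomal and killing genes of -0.27 over 5. Fcgr1, the high-affinity receptor for immunoglobulin G, stood at 2.52, 3.16 and 0.773 CPM in wild-type libraries, against 1.52, 0.798 and 0.890 CPM in knockout ones. Wild-type replicate 3 lay below every knockout library, so the groups overlapped. The log2 fold change of -1.002 ± 0.44 had an unadjusted p of 0.0363 and an adjusted p of 0.9997 (edgeR's quasi-likelihood test).

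In 3 of the 35 every knockout library lay below every wild-type library at 2 months, against 3.72% of all genes, and in 0 every knockout library lay above, against 4.43%. They were Cd68, F13a1 and Pf4. Cd68, a lysosomal membrane glycoprotein, stood at 4.30, 2.75 and 3.17 CPM in wild-type libraries, against 2.37, 2.7 and 2.18 CPM in knockout ones, for a log2 fold change of -0.50 ± 0.34 (unadjusted p 0.163). F13a1 stood at 56.7, 54.9 and 45.7 CPM in wild-type libraries, against 44.8, 32.8 and 38.1 CPM in knockout ones, for -0.44 ± 0.21 (unadjusted p 0.0514). Pf4 stood at 16.8, 17.5 and 14.5 CPM against 13, 11.7 and 11.6 CPM, for -0.42 ± 0.39 (unadjusted p 0.291). The nearest libraries of the genotypes were close to each other in Cd68 and F13a1, and edgeR's adjusted p was 0.9997 for each of the 3 genes.

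The lower values at 2 months were not spread evenly over the libraries. Of the 35 genes, 31, 28 and 19 stood above their own median over all libraries in wild-type replicates 1 to 3, and 19, 9 and 16 in knockout replicates 1 to 3. The summed level of the 35, of which Lyz2 is the largest term, was 631, 681 and 601 CPM in wild type and 544, 413 and 537 CPM in knockout, without overlap. Without wild-type replicate 1 the count below 0 was 32 and the median -0.27, and without knockout replicate 2 they were 32 and -0.24. Other lists also lay on 1 side of 0: 10 of 10 fibroblast genes were below 0 (median -0.70, summed levels of 969 to 2629 CPM in wild type and 1028 to 1280 CPM in knockout), 4 of 4 neutrophil genes were below 0 (median -1.36), and 7 of 7 red cell genes and 5 of 5 lymphocyte genes were above 0 (medians 0.37 and 0.46). Below 0 too were 8 of 8 immediate early (median -0.97), 5 of 5 fat cell (-3.55) and 5 of 5 atrial genes (-6.81). The summed levels of each of these lists overlapped between the genotypes. Wild-type replicate 1 had the highest fibroblast, neutrophil, immediate early, fat cell and atrial sums (2629, 18.3, 332, 56.1 and 1681 CPM). Knockout replicate 1 had the highest lymphocyte sum (14.2 CPM). None of these genes was called, and their part in the values of the 35 was not tested.

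At 15 months the difference between the genotypes lay near 0. Of the 35, 24 were above and 11 below 0 (51.7% and 48.3% of all genes), with a median of 0.08 against 0.01 over all genes. Called were 0 of the 35, against 0% of all genes higher and 0.00644% lower (Sqstm1), and DESeq2 and limma voom called 0 as well. At an unadjusted p below 0.05 there were 1 higher, C1qb, and 1 lower, Ly6c2, against 1.82% and 2.14% of all genes. In none of the 35 were the groups free of overlap, against 0.76% of all genes on the higher and 1.23% on the lower side. All 3 C1q genes were above 0, with C1qb furthest from it. C1qb stood at 18.7, 13.9, 17.7 and 18.1 CPM in wild-type libraries, against 17.5, 24.1, 22.2 and 21.6 CPM in knockout ones. Knockout replicates 2 to 4 exceeded every wild-type library and replicate 1 did not. The log2 fold change was 0.32 ± 0.15, with an unadjusted p of 0.0493 and an adjusted p of 0.999 (edgeR's quasi-likelihood test).

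Ly6c2 was the furthest below 0 at 15 months. It stood at 0.172, 2.03, 1.30 and 0.516 CPM in wild-type replicates 1 to 4 and at 0.324, 0.417, 0.361 and 0.294 CPM in knockout. The high values were those of wild-type replicates 2 and 3, and replicate 1 was below every knockout library. The log2 fold change was -1.50 ± 0.57 (unadjusted p 0.0192, adjusted p 0.999, edgeR's quasi-likelihood test). Its near-copy Ly6c1 was not high in the same libraries, with 58.8, 43.7, 48.2 and 63.8 CPM in wild type and 52.7, 63.1, 112 and 77.8 CPM in knockout. Wild-type replicate 4 weighed most on the whole set at this age: without it 5 of the 35 were below 0 and the median was 0.28.

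Averaged over both ages, 29 of the 35 were below 0 in knockout (49.7% of all genes), with a median of -0.15 and 0 called by edgeR (0% of all genes higher, 0.00644% lower). At an unadjusted p below 0.05 there was 1, Fcgr1, lower, against 1.95% of all genes lower and 1.31% higher. Without wild-type replicate 1 at 2 months 19 of the 35 were below 0. The change of the genotype difference between the ages was above 0 for 32 of the 35 and below 0 for 3 (50.7% and 49.3% of all genes), with a median of 0.42 against 0.01 over all genes, but 0 were called in either direction (0% of all genes), by edgeR, DESeq2 or limma voom. C1qb had the smallest unadjusted p among the 35, at 0.64 ± 0.23 (edgeR's quasi-likelihood test, unadjusted p 0.0133), and was 1 of the 35 below an unadjusted p of 0.05, against 2.21% of all genes higher and 1.51% lower. These values are built from the same libraries as the comparisons at each age. In the same fit 10 of 10 fibroblast genes (median 1.05), 8 of 8 immediate early genes (1.13), 6 of 6 platelet genes (1.75) and 4 of 4 neutrophil genes (1.19) were above 0, with 0 called, and their part in the values of the 35 was not tested.

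**Figure D2:**
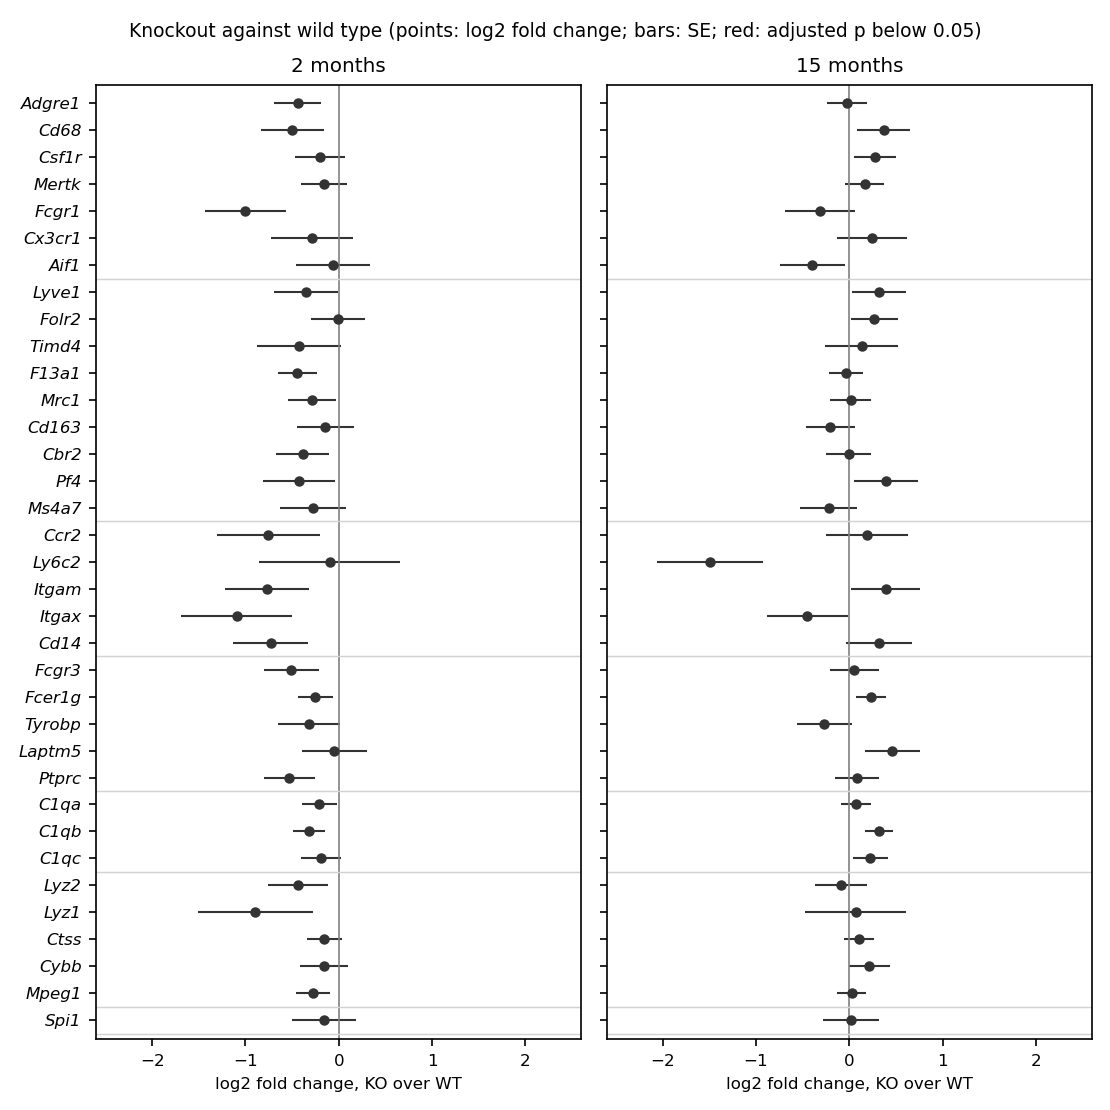
Points are log2 fold changes of knockout over wild type at 2 months (left) and 15 months (right) for each of the 35 genes, ordered by role, and bars are standard errors. At 2 months the 35 points lie left of 0, with a median of -0.32, and at 15 months 24 lie right of it, with no adjusted p below 0.05 at either age.

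In aged wild-type hearts most macrophage transcripts were lower on average and some monocyte transcripts higher, but only Fcgr3 passed the test. Of the 35, 28 were below and 7 above 0 at 15 against 2 months (51.7% and 48.3% of all genes), with a median of -0.34 against -0.02 over all genes. The test called 1 of the 35, Fcgr3, which fell, against 0.425% of all genes lower and 0.612% higher. DESeq2 called 7 of the 35, all lower (3.52% of all genes), and limma voom 1 (0.406%). At an unadjusted p below 0.05, 11 were lower and 1, Ly6c2, was higher, against 12.7% and 11.1% of all genes. In 9 of the 35 every aged library lay below every young library (7.57% of all genes), and in 1, Itgax, above it (8.6%). In the same comparison 10 of 10 fibroblast genes were below 0 (median -0.69, summed levels of 969 to 2629 CPM at 2 months and 706 to 1514 CPM at 15 months, 0 called), as were 8 of 8 immediate early genes (median -1.24, 0 called). Their part in the values of the 35 was not tested.

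Fcgr3 encodes the low-affinity Fc receptor III, which lets macrophages and natural killer cells respond to bound immunoglobulin G, and lies on chromosome 1 (171051174 to 171064935, minus strand, GRCm38). In wild type it stood at 17.6, 26.9 and 22.5 CPM at 2 months and at 6.55, 11.4, 8.41 and 9.84 CPM at 15 months. The ages did not overlap, and the fall was -1.30 ± 0.27 on the log2 scale, or 2.47-fold (edgeR's quasi-likelihood test, Benjamini-Hochberg adjusted p 0.0374). The call was lost on leaving out any of 8 libraries (among the young hearts wild-type 2 and 3 and knockout 1 and 3, among the aged ones wild-type 1, 3 and 4 and knockout 2), with log2 fold changes from -1.34 to -1.15 and adjusted p from 0.0506 to 0.18. The closely related inhibitory receptor gene Fcgr2b, with which it shares windows of sequence, was at -0.20 ± 0.23 (adjusted p 0.606), and Fcgr4 at -1.32 ± 0.61 (adjusted p 0.206, edgeR's quasi-likelihood test).

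The adaptor genes Tyrobp and Fcer1g also had lower values in aged wild-type hearts, short of the threshold. Fcer1g encodes the signalling chain of activating Fc receptors, and Tyrobp encodes DAP12, an adaptor of other receptors such as Trem2. Tyrobp stood at 10.2, 16.1 and 11.3 CPM at 2 months and at 3.86, 5.86, 4.19 and 8.48 CPM at 15 months in wild type, without overlap, for -1.16 ± 0.31 (adjusted p 0.0802, edgeR's quasi-likelihood test). Fcer1g stood at 7.83, 7.70 and 6.76 CPM at 2 months and at 4.55, 4.11, 5.29 and 5.60 CPM at 15 months, again without overlap, for -0.60 ± 0.17 (adjusted p 0.0943). Of the other genes of this group, the tyrosine phosphatase Ptprc (CD45) was at -0.60 ± 0.25 and the lysosomal protein gene Laptm5 at 0.11 ± 0.32, with adjusted p of 0.174 and 0.861 (edgeR's quasi-likelihood test).

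Lysozyme and complement transcripts were also lower in aged wild-type hearts, short of the threshold. Lyz2, on chromosome 10 (117277331 to 117282321, minus strand), stood at 197, 276 and 245 CPM at 2 months and at 68.2, 123, 80.7 and 153 CPM at 15 months. The ages did not overlap, and the log2 fold change was -1.17 ± 0.30 (adjusted p 0.0717, edgeR's quasi-likelihood test). C1qb stood at 27.4, 23.1 and 26.9 CPM at 2 months and at 18.7, 13.9, 17.7 and 18.1 CPM at 15 months, for -0.59 ± 0.16 (adjusted p 0.0814). C1qa was at -0.48 ± 0.17 (adjusted p 0.137), also without overlap, and C1qc at -0.29 ± 0.20 with overlap. The cysteine protease gene Ctss, which trims the invariant chain of class II molecules, was at -0.57 ± 0.17 (adjusted p 0.104), without overlap, whereas the oxidase subunit gene Cybb and the pore-former gene Mpeg1 were at -0.14 ± 0.24 and -0.20 ± 0.17. Lyz1 was at -0.98 ± 0.56 and Spi1 at -0.28 ± 0.32, neither with an unadjusted p below 0.05.

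The resident macrophage genes did not move as a block with age in wild type. Pf4 stood at 16.8, 17.5 and 14.5 CPM at 2 months and at 5.79, 7.28, 5.46 and 11.5 CPM at 15 months, without overlap, for -1.11 ± 0.36 (adjusted p 0.113, edgeR's quasi-likelihood test). Folr2 stood at 11.4, 8.12 and 6.22 CPM against 3.72, 5.82, 4.77 and 6.19 CPM, for -0.74 ± 0.27 (adjusted p 0.137), with the highest aged library just below the lowest young one. Pf4 is also the defining product of platelets, and 6 of 6 platelet genes were below 0 in this comparison (median -1.22, summed levels of 3.25 to 30.9 CPM at 2 months and 5.06 to 10.3 CPM at 15 months, 0 called); their part in the Pf4 value was not tested. Lyve1, the scavenger receptor gene Cd163 and the carbonyl reductase gene Cbr2 stayed between -0.08 and 0.04. F13a1, Mrc1, Ms4a7 and Timd4 lay between -0.65 and -0.17, none with an unadjusted p below 0.05.

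Among the general macrophage genes, Adgre1, which encodes F4/80, was at -0.45 ± 0.23 with age in wild type, Csf1r at -0.32 ± 0.25, the fractalkine receptor Cx3cr1 at -0.51 ± 0.41, Fcgr1 at -0.58 ± 0.39 and Aif1 at -0.41 ± 0.37. Mertk, a receptor for the uptake of dying cells, and Cd68 were slightly above 0, at 0.09 ± 0.23 and 0.18 ± 0.31. None of these 7 had an unadjusted p below 0.05. The monocyte genes split: Ly6c2 was at 1.70 ± 0.65, Ccr2 at 0.73 ± 0.49 and Itgax at 0.62 ± 0.49, whereas Itgam was at -0.31 ± 0.40 and the endotoxin co-receptor Cd14 at -0.83 ± 0.37. Their adjusted p ran from 0.148 to 0.668 (edgeR's quasi-likelihood test). The Cd14 value rested on wild-type replicate 3 at 2 months, at 7.27 CPM against 1.55 to 4.23 CPM in the other 13 libraries, and without it was -0.23. The Ly6c2 value rested on wild-type replicates 2 and 3 at 15 months, as above, since the other 2 aged libraries lay at 0.172 and 0.516 CPM beside 0.193 to 0.478 CPM in the young ones.

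**Figure D3:**
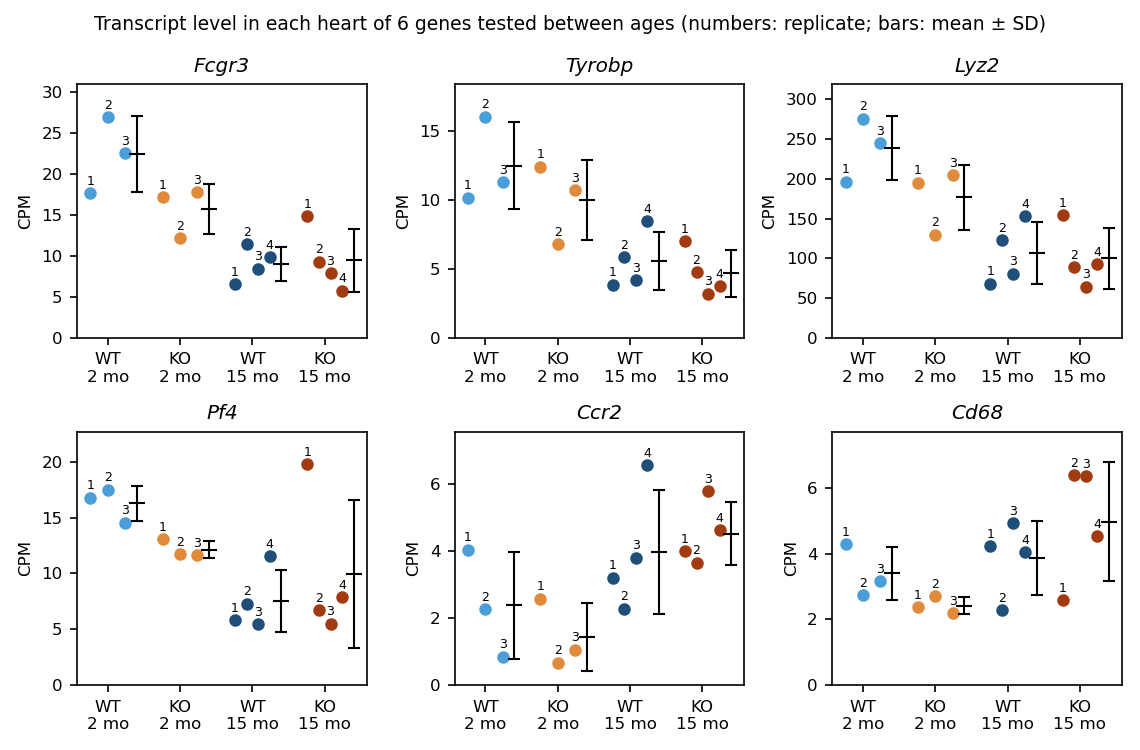
Each point is the level in CPM of a gene in a heart, on axes that start at 0, with the replicate number above it, and the bar at the right of each group is the mean ± SD. In wild type the aged points of Fcgr3, Tyrobp, Lyz2 and Pf4 lie below all young points. In knockout the aged Ccr2 points lie above all young points, and replicate 1 stands apart from the other aged knockout hearts in Fcgr3, Lyz2, Pf4 and Cd68.

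In knockout hearts the 35 genes lay on both sides of 0 with age. Of them 20 were above and 15 below 0 (50.6% and 49.4% of all genes), with a median of 0.03 against 0.01 over all genes, and 0 were called, against 1.07% of all genes higher and 1.18% lower. DESeq2 called 2 higher and 1 lower (5.09% and 5.36% of all genes), and limma voom 0. At an unadjusted p below 0.05, 4 were higher and 3 lower, against 12.6% and 14.1% of all genes. The groups did not overlap for 2 of the 35 on the higher side, Ccr2 and Itgam (8.83% of all genes), and for 1 on the lower side, Ctss (11.3%). Fibroblast genes were above 0 in 8 of 10 (median 0.47) and endothelial genes in 9 of 10 (median 0.84), with 0 called, and their part in the values of the 35 was not tested.

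All 5 monocyte genes were above 0 in knockout, with a median of 0.85. Ccr2, the receptor for the monocyte attractant Ccl2, stood at 2.58, 0.665 and 1.05 CPM at 2 months and at 3.99, 3.65, 5.78 and 4.63 CPM at 15 months. The ages did not overlap, and the log2 fold change was 1.67 ± 0.52 (adjusted p 0.0839, edgeR's quasi-likelihood test). Itgam stood at 0.758, 0.488 and 0.728 CPM against 1.02, 1.29, 1.02 and 1.43 CPM, for 0.85 ± 0.42 (adjusted p 0.205). Itgax was at 1.27 ± 0.55 (adjusted p 0.162), Ly6c2 at 0.31 ± 0.68 and Cd14 at 0.22 ± 0.38. Both Ccr2 and Itgam had few reads, with 1181 and 341 over all libraries.

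Cd68 had the smallest adjusted p among the higher genes. It stood at 2.37, 2.7 and 2.18 CPM at 2 months and at 2.59, 6.40, 6.38 and 4.54 CPM at 15 months in knockout, for 1.05 ± 0.32 (adjusted p 0.0809, edgeR's quasi-likelihood test). Replicate 1 lay among the young hearts and the other 3 above them. Lyve1 was at 0.71 ± 0.32 (adjusted p 0.175), Laptm5 at 0.62 ± 0.32 and Mertk at 0.42 ± 0.23. Lyve1 is also a gene of lymphatic vessels, and 5 of 5 lymphatic endothelial genes tested were above 0 in the same comparison (median 1.11, summed levels of 107 to 133 CPM at 2 months and 130 to 220 CPM at 15 months, 0 called); their part in the Lyve1 value was not tested.

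On the lower side in knockout, Tyrobp stood at 12.4, 6.78 and 10.7 CPM at 2 months and at 7.01, 4.76, 3.19 and 3.74 CPM at 15 months, for -1.10 ± 0.32 (adjusted p 0.07, edgeR's quasi-likelihood test). Lyz2 stood at 195, 130 and 205 CPM against 154, 88.8, 64.2 and 92.7 CPM, for -0.82 ± 0.30 (adjusted p 0.114). Fcgr3 stood at 17.2, 12.1 and 17.8 CPM against 14.8, 9.28, 7.86 and 5.76 CPM, for -0.74 ± 0.27 (adjusted p 0.116). In all 3 genes it was replicate 1 at 15 months, the library with the high platelet sum, that reached into the range of the young hearts. Fcer1g was at -0.12 ± 0.18, C1qb at 0.05 ± 0.16 and C1qa at -0.20 ± 0.17, none with an unadjusted p below 0.05. The other 20 genes lay between -0.75 (Aif1) and 0.31 (Cbr2), Spi1 at -0.11 ± 0.32 among them, also with no unadjusted p below 0.05.

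Of the aged knockout libraries, replicate 1 lay nearest to the young hearts in Cd68, Tyrobp, Lyz2 and Fcgr3. Leaving it out widens those differences by construction, so the calls that follow are no separate test of them. Without that library, 6 of the 35 passed the threshold in knockout. Cd68 and Ccr2 were then called higher, at 1.256 and 1.73 (adjusted p 0.00976 and 0.042), and Tyrobp, Lyz2, Fcgr3 and Pf4 lower, at -1.35, -1.11, -1.04 and -0.86 (adjusted p 0.011, 0.0159, 0.0108 and 0.0221, edgeR's quasi-likelihood test). At the other end, with each library's slope of level on transcript length as a covariate, Cd68 was at 0.10, Lyz2 at -0.13 and Fcgr3 at -0.15 in knockout (adjusted p 0.935, 0.914 and 0.891, edgeR). In that fit none of the 6 passed in knockout, and of all 15528 genes 54 were called higher and 32 lower. The slope of knockout replicate 1 was -0.0916, against 0.0904 to 0.235 in the other aged knockout libraries. Leaving out the library raised the calls over all genes to 1600 higher (10.2%) and 1923 lower (12.3%) of 15617 tested. In wild type, where the spread is estimated over all libraries, it raised the calls to 6 lower of the 35, against 2.92% of all genes. Leaving out wild-type replicate 1 at 2 months as well gave 3 higher and 4 lower in knockout, with Mertk added at 0.58 (adjusted p 0.0458, edgeR), and 4 lower in wild type. Over all genes that fit called 11.6% higher and 13.3% lower in knockout and 8.21% lower in wild type.

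The age differences were not shown to depend on the genotype. For Fcgr3 the difference between knockout and wild type in the age effect was 0.56 ± 0.39, for Tyrobp 0.05 ± 0.45, for Lyz2 0.35 ± 0.43, for Pf4 0.82 ± 0.51, for Ccr2 0.94 ± 0.70 and for Cd68 0.87 ± 0.44. Their unadjusted p ran from 0.0693 to 0.905 (edgeR's quasi-likelihood test). Without knockout replicate 1 at 15 months the value was 0.27 for Fcgr3, 0.25 for Pf4, 0.06 for Lyz2 and -0.20 for Tyrobp. Without wild-type replicate 1 at 2 months it was 0.29 for Ccr2.

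**Figure D4:**
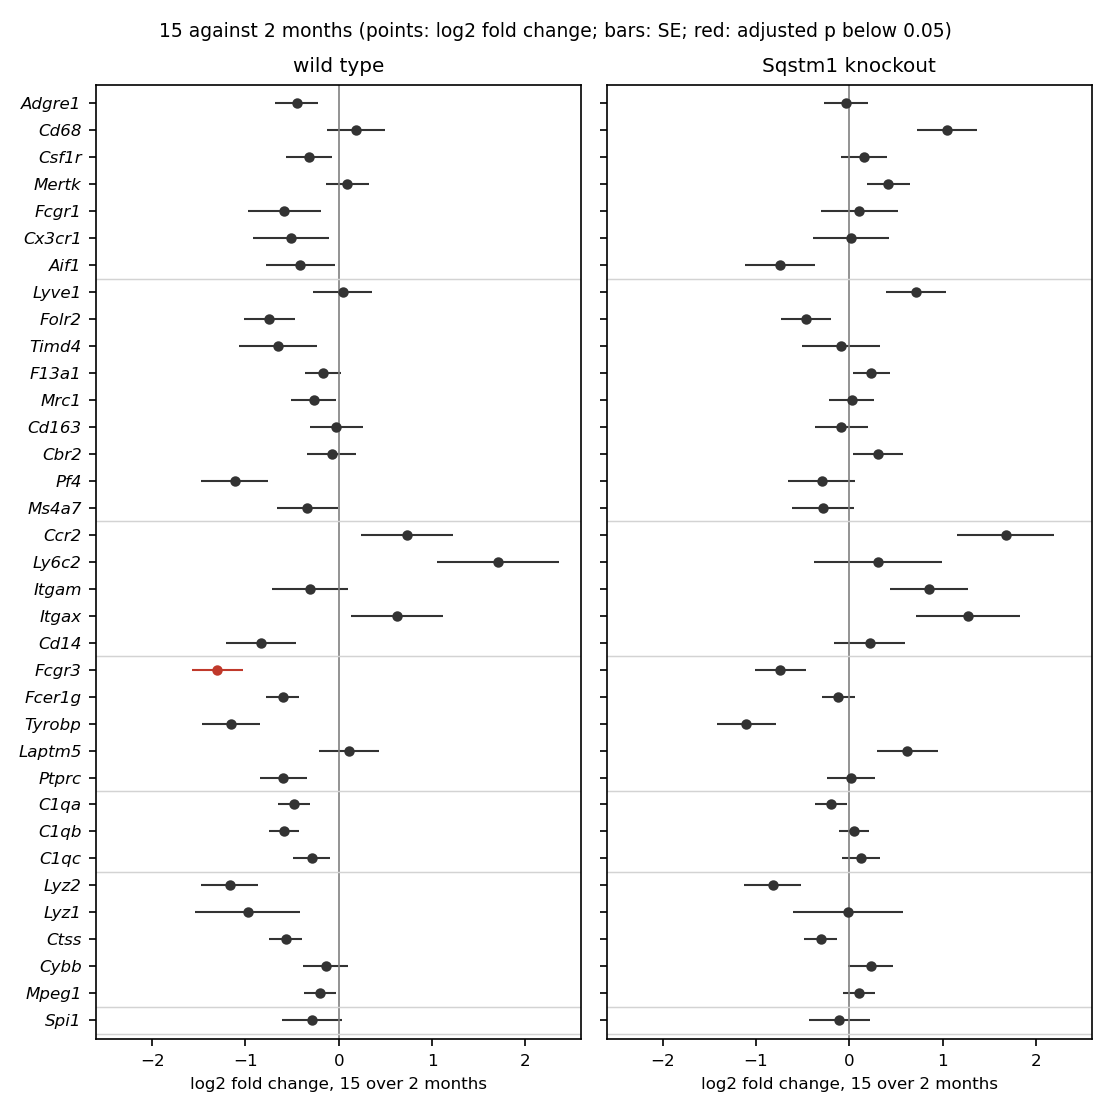
Points are log2 fold changes of 15 over 2 months in wild type (left) and knockout (right) for each of the 35 genes, ordered by role, and bars are standard errors. Fcgr3 in wild type, in red, has an adjusted p below 0.05, 28 of the 35 points lie left of 0 in wild type, and 20 lie right of 0 in knockout.

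Transcript length moved with the age differences of the 35. Across the genes, the log2 fold change with age was ordered partly by annotated exon length, with Spearman's rho 0.53 in wild type and 0.49 in knockout (n = 35 genes measured in the same libraries). Over all genes tested the same values were 0.35 and 0.41. The 18 genes with exons of up to 2695 bases had a median age difference of -0.60 in wild type and -0.11 in knockout, and the 17 longer ones of -0.17 and 0.23. Between genotypes the rho was -0.05 at 2 months and -0.10 at 15 months. Tyrobp (667 bases), Pf4 (721), Lyz2 (1316) and Fcgr3 (1736) are among the short transcripts and Ccr2 (6760) is among the long. Cd68 (1257 bases) is short and stood above 0 in both genotypes, in wild type by less than its standard error. With the length slope as a covariate its knockout value lay near 0, as given above.

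With each library's slope of level on length as a covariate, Fcgr3 in wild type was at -0.85 (adjusted p 0.0622) and no longer passed, and C1qb, at -0.78 (adjusted p 0.0228, edgeR's quasi-likelihood test), did. In that fit 30 of the 35 were below 0 in wild type, with a median of -0.47, and 19 in knockout, with a median of -0.13. The slopes of the 6 young libraries lay between -0.177 and -0.0105 and those of the 8 aged ones between -0.0916 and 0.235. The ranges overlapped only through knockout replicate 1 (-0.0916) and wild-type replicate 2 (-0.0744) at 15 months. The other aged slopes lay between 0.0469 and 0.235. Without knockout replicate 1 the aged knockout slopes (0.0904 to 0.235) all lay above the young ones. Age and slope cannot then be told apart in knockout.

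**Figure D5:**
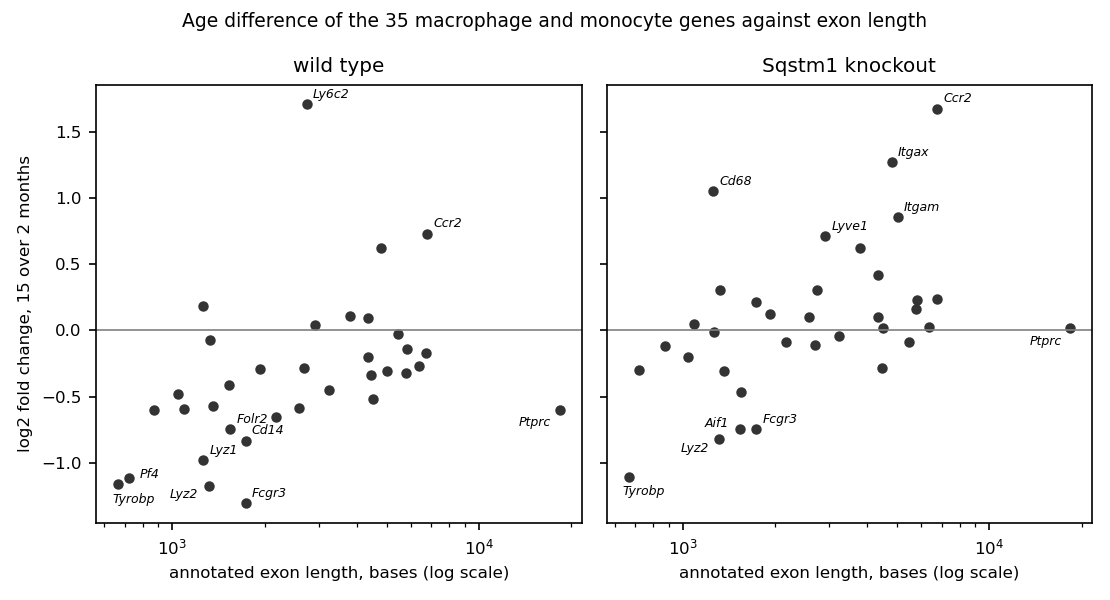
Each point is 1 of the 35 genes, with annotated exon length in bases on a log axis and the log2 fold change of 15 over 2 months on the other, in wild type (left) and knockout (right). In wild type 1 of the 18 shorter and 6 of the 17 longer genes lie above 0, and in knockout 6 and 14.

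Further lists held other macrophage genes, ligands and partners of the set, and class II genes. Which cells made the RNA of these genes was not tested. Of 39 other macrophage genes, 37 were below 0 in knockout at 2 months (median -0.30, 0 called) and 28 above 0 at 15 months (median 0.10, 0 called). With age in wild type 28 were below 0 and 0 were called. With age in knockout 22 were above 0 and 2 were called, both higher: Gpnmb, a glycoprotein of lysosome-rich macrophages, and Cd209f, a lectin gene. Gpnmb stood at 0.303, 0.222 and 0.243 CPM at 2 months and at 0.701, 2.89, 3.40 and 1.56 CPM at 15 months in knockout, without overlap, for a rise of 3.07 ± 0.64 on the log2 scale (adjusted p 0.0279, edgeR's quasi-likelihood test). In wild type it was at 2.44, 0.478 and 0.773 CPM against 1.58, 1.34, 2.34 and 2.14 CPM, and replicate 1 at 2 months was above all aged hearts. Without that library and knockout replicate 1 at 15 months, Gpnmb passed in wild type too, at 1.53 (adjusted p 0.0282, edgeR's quasi-likelihood test), which it did in 1 of 24 settings.

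Cd209f was low at 2 months in both genotypes, at 0.388, 0.179 and 0.0773 CPM in wild type and 0.354, 0 and 0.121 CPM in knockout. At 15 months it stood at 1.55, 1.058, 1.04 and 2.32 CPM and at 1.78, 1.01, 1.264 and 1.77 CPM. The ages did not overlap in either genotype, and the log2 fold change was 3.21 ± 0.68 in knockout (adjusted p 0.0306) and 2.75 ± 0.64 in wild type (adjusted p 0.0553, edgeR's quasi-likelihood test). It passed in knockout in 17 of 23 alternative settings and in wild type in 6 of 23, and Gpnmb passed in knockout in 15 of 24. With the length slope as a covariate Gpnmb was at 1.48 (adjusted p 0.324) and Cd209f at 3.38 (adjusted p 0.0699) in knockout. The co-stimulatory ligand gene Cd86 was at -1.46 ± 0.35 with age in wild type (adjusted p 0.0619).

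Of 9 ligands of the receptors in the set, Cx3cl1 passed the test. This gene encodes fractalkine, the ligand of Cx3cr1, and stood at 5.05, 5.01 and 4.45 CPM at 2 months and at 5.83, 10.5, 17.2 and 11.2 CPM at 15 months in knockout, for a rise of 1.22 ± 0.29 (adjusted p 0.0444, edgeR's quasi-likelihood test). In wild type it stood at 4.30, 3.10 and 3.67 CPM against 8.92, 6.02, 10.5 and 9.77 CPM, for 1.25 ± 0.30 (adjusted p 0.0568). The ages did not overlap in either genotype. It passed in knockout in 9 of 24 alternative settings, and with the length slope as a covariate it was at 0.36 (adjusted p 0.6). Its receptor Cx3cr1 was at -0.51 ± 0.41 in wild type and 0.02 ± 0.41 in knockout. The Csf1r ligand genes Csf1 and Il34 lay between 0.06 and 0.33 with age in both genotypes, and the Ccr2 ligand genes Ccl2 and Ccl7 at -0.87 ± 0.60 and -1.16 ± 0.57 in wild type and at 1.11 ± 0.64 and 0.42 ± 0.60 in knockout, none called.

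Partners of the proteins in the set gave 0 calls of 14 in each comparison of genotypes or ages. With age the oxidase subunit gene Cyba was at -0.73 ± 0.27 in both genotypes (adjusted p 0.142 and 0.117, edgeR's quasi-likelihood test). The complement proteases that C1q activates, C1ra and C1s1, were at 1.34 ± 0.42 and 1.11 ± 0.31 with age in knockout (adjusted p 0.0835 and 0.066), and the integrin chain that pairs with Itgam and Itgax, Itgb2, was at 0.88 ± 0.26 (adjusted p 0.0763, edgeR's quasi-likelihood test). Of 7 class II antigen presentation genes 0 were called in any comparison, with medians between -0.24 and -0.06. Of the tested genes of neutrophils (4 of 12 listed), lymphocytes (5 of 18), dendritic cells (2 of 8) and mast cells (6 of 7), 0 were called in any comparison.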

How the data were processed

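The authors deposited raw read counts per gene for all 14 libraries, made from total RNA with ribosomal RNA depleted and a stranded kit, per the labels' protocols. Per the submitters' processing notes, the tools were featureCounts 1.6.3, STAR 2.7.3a, DESeq2 1.26.0 and cutadapt 1.16, with GRCm38. Which annotation was counted, with what strand setting, and what became of multiply mapped reads is not given in the sources used here. Counts were scaled by the TMM method in edgeR 4.0.16 (R 4.3.3), filtered with filterByExpr (minimum count 10, minimum total 15) and fitted with edgeR's robust quasi-likelihood model over 4 group means. Tests were two-sided, with Benjamini-Hochberg adjustment over all 15528 genes and a threshold of 0.05. CPM values use the TMM-scaled library total, log2 fold changes carry 1 SE, and "no overlap" means that every library of a group lies beyond every library of the other. Exon lengths and positions are from GENCODE M21 (GRCm38), to which 55227 of the 55487 identifiers matched. The labels give no batch.

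In simulated counts with known changes, log2 changes of 1 were recovered in 41.4% (the genotypes at 2 months), 48% (the genotypes at 15 months), 44.9% (age in wild type) and 39.8% (age in knockout) of genes, and changes of 2 in 82.8%, 80.8%, 79.8% and 83%, among 15312, 15304, 15316 and 15255 genes tested. Each simulation changed 98 to 100 genes at each size, and many changed genes loosen the adjusted threshold. In the real comparisons of genotypes 1 gene was called, so recovery there may be lower. Counts were drawn from 1 mean per gene, with no library that stood apart and no length slope. Alternatives were RLE factors, no or a stricter filter (mean CPM of 1), DESeq2 1.42.0, limma voom 3.58.1, only the groups compared, a replicate block, mitochondrially encoded genes left out, a length covariate, each library left out, and a threshold of 0.1. The 35 genes and all gene lists were chosen with earlier results of these data known. All 35 are named, and from other lists the genes past the threshold or with the smallest p. Fcgr2b, Fcgr4, Ly6c1, Csf1, Il34, Ccl2, Ccl7 and Cyba were added for their relation to a gene of the set after values were seen. Atf3, from the immediate early list, was also added after values were seen.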

Additional observations from a re-analysis of the deposited data

Results flagged for a closer look

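In aged wild-type hearts the summed level of the 35 genes was 546 CPM in replicate 4, against 358 to 388 CPM in the other 3. The gap to the nearest library was 0.837 of the whole range, above the critical value of Dixon's ratio for 4 samples. In this library 27 of the 35 genes stood above their own median over all libraries. Pf4 stood at 19.8 CPM in knockout replicate 1 at 15 months and at 5.51 to 7.87 CPM in the other 3, a gap of 0.835 of the range. The platelet gene Ppbp stood at 24.6 CPM in the same library and at 4.97, 4.30 and 6.86 CPM in the others. Of 72 groups of values examined these were the 2 that passed, and chance alone passes about 1 in 20.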

How the results depend on the processing

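The count of the 35 below 0 at 2 months stayed between 32 and 35 when each library was left out, and the median between -0.39 and -0.24. At 15 months the count below 0 ran from 5 to 16 and the median from 0.0228 to 0.276, and over both ages the count ran from 19 to 33. For the change of the genotype difference with age it ran from 2 to 5, and was 5 without both libraries that stood apart. The calls depended most on the setting in the comparisons of ages. In wild type the genes called lower were 1, but 5 at a threshold of 0.1, 7 with DESeq2, 4 without both libraries, and 0 to 6 with each library left out. In knockout the genes called higher were 0, but 2 at a threshold of 0.1, 2 with DESeq2, 3 without both libraries, and 0 to 2 with each left out; those called lower were 0, but 1, 1, 4 and 0 to 4. Over all genes tested (15528, or 15940 without both libraries), 66 were called lower in wild type, 546 with DESeq2 and 1308 without both libraries. With each library left out that count ran from 11 to 456. In knockout 166 of all genes were called higher and 183 lower, with DESeq2 790 and 832, and without both libraries 1845 and 2124. With each left out the knockout counts ran from 29 to 1600 and from 20 to 1923. Apart from the looser threshold, why the calls changed with the setting was not tested.

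The sample titles do not say whether replicate numbers pair the libraries. After centring within each group, same-numbered libraries had correlations of -0.05, 0.00 and 0.31 at 2 months and of -0.44, -0.27, 0.11 and 0.23 at 15 months. Differently numbered libraries had -0.198 to 0.179 and -0.426 to 0.549. So few values cannot decide whether samples were paired. For the comparisons of ages, the replicate block joined same-numbered libraries of a genotype across ages, a pairing not examined above. Replicate 4 at 15 months had no partner at 2 months, so it did not enter those age differences. With this block, 3 of the 35 were called lower with age in wild type, against 50 of all 15528 genes, with a median of -0.53. No other count of calls among the 35 changed with the replicate number as a block. Over 210 values of a gene in a comparison and 24 settings, 265 of 4949 refitted values turned sign, none of them past the threshold; 33 values passed newly and 9 passed no longer. Few reads limit Itgax, Ly6c2 and Itgam most.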

Other observations

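Cd14, the endotoxin co-receptor, stood at 7.27 CPM in wild-type replicate 3 at 2 months, against 1.55 to 4.23 CPM in the other 13 libraries. In the same library the stress-induced transcription factor gene Atf3 stood at 105 CPM, against 1.39 to 30.2 CPM in the others. The second highest Atf3 level, 30.2 CPM, was in knockout replicate 3 at 2 months, where Cd14 stood at 3.11 CPM. Atf3 is from the immediate early list, of which Fosb was also highest in wild-type replicate 3. Fos, Jun, Junb, Egr1, Ier2 and Dusp1 were highest in wild-type replicate 1 at 2 months. No test was made of these values.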
